A study of Mus musculus with 2 samples.

Results

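The cluster of miR-221 and miR-222 was followed through its 4 mature arms, mmu-miR-221-3p, mmu-miR-221-5p, mmu-miR-222-3p and mmu-miR-222-5p, among the 1915 mature miRNAs listed for exosomes of mouse colon cancer cells. The members were chosen by name, after the SDCSC to parental values of these libraries were known, so their ratios are a description and no test is given for them. Exosomal small RNA had been sequenced from CT26, an established colon carcinoma line from Balb/C mice. It was compared with that of its sphere-derived cancer stem cells (SDCSCs), cultured as spheres for 2 weeks with 10 ng/ml EGF, 10 ng/ml bFGF and N2 supplement. Parental medium held exosome-depleted serum and sphere medium was serum-free, so medium, growth form and cell state cannot be told apart. Each condition had 1 library, and no replicate error could be set beside any value. The deposited RPM values (reads scaled to a common total of miRNA reads) were turned back into reads. The RPM values refer to all entries, with 36615 parental and 4592 SDCSC reads. With only the highest entry kept for each name, the libraries held 32162 parental and 3964 SDCSC miRNA reads. Shares are percentages of these smaller totals, so they differ from the RPM values. The depth can show a share down to 3 reads, that is 0.00933% of the parental and 0.0757% of the SDCSC total. Intervals are 95% intervals and cover counting error only, as amplified reads are not independent molecules.

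A miRNA is cut from a hairpin precursor, whose 5p and 3p arms can each yield a mature strand, and the strand loaded into an Argonaute protein pairs with target mRNAs mainly through its seed, bases 2 to 8. The miR-221 and miR-222 hairpins are transcribed together on chromosome X, and their 3p arms are the usual guide strands. These 3p arms are known to repress the cell cycle inhibitor p27 (Cdkn1b) and the receptor Kit, and are abundant in many tumors.

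The sequences show what sets the arms apart in the results: the 3p arms carry one seed and can be told from each other only by the bases behind it, while the 5p arm of miR-221 carries another. Mature sequences are given 5′ to 3′ from RefSeq (GRCm38.p6), with the seed in capitals. In the hairpins, which show that the arms come from separate precursors, capitals mark the arms that RefSeq lists.
miR-221-3p: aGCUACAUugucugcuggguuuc
miR-222-3p: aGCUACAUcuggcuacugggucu
miR-221-5p: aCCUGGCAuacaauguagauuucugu
Mir221 hairpin: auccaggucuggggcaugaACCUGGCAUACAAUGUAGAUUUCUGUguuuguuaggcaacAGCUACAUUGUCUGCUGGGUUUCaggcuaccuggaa
Mir222 hairpin: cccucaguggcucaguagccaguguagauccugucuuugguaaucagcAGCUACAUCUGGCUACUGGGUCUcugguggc

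Mir221 (ENSMUSG00000065422.1) spans 19146294 to 19146388 and Mir222 (ENSMUSG00000065471.1) spans 19146893 to 19146971, both on the minus strand of chromosome X in GRCm38. The hairpins lie 504 bases apart, and the GENCODE annotation places 0 other genes over either of them. The nearest annotated gene, the noncoding Gm14636 on the same strand, lies 10.0 kb from Mir222. The mature arms occupy 19146307 to 19146329 (miR-221-3p), 19146344 to 19146369 (miR-221-5p) and 19146901 to 19146923 (miR-222-3p). Counted from the 5′ end, the 3p arms were identical over their first 8 bases and at 11 of 23 positions in all, the first difference being U9C and the last C23U, with the miR-221-3p base given first. Within the first 18 bases, the shortest read kept by the study, they differed at 9 positions. A shared run, cugggu, sits at bases 15 to 20 of miR-221-3p and 16 to 21 of miR-222-3p, shifted by one base. A search of the RefSeq table, which matched 1623 of the 1915 names, found miR-1928 as its other miRNA with the seed GCUACAU. It had 0 reads in both libraries. No other miRNA of the RefSeq table had the seed CCUGGCA of miR-221-5p. Seeds of unmatched names, miR-222-5p among them, were not searched.

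In SDCSC exosomes the cluster was dominated by miR-222-3p, whereas in parental exosomes miR-221-3p was its most abundant arm. The guide arm of miR-222 had 88 reads (2403.39 RPM) in the parental library, which is 0.274% of miRNA reads (95% Wilson interval 0.222 to 0.337%). In the SDCSC library it had 288 reads (62717.77 RPM), or 7.27% (6.50 to 8.12%). It thus moved from rank 50 by abundance to rank 3, level with miR-22-3p (288 reads) and behind miR-21a-5p (865 reads) and miR-100-5p (359 reads). The SDCSC share was 26.6 times the parental share (exact interval 20.8 to 34.1), a log2 ratio of 4.73.

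The guide arm of miR-221, which carries the same seed, had 200 reads (5462.24 RPM) in parental and 34 reads (7404.18 RPM) in SDCSC exosomes. Its shares were 0.622% (0.542 to 0.714%) and 0.858% (0.614 to 1.20%), and the intervals overlap. By abundance it ranked 32 and 22. The ratio of 1.38 had an interval that includes 1 (0.929 to 1.99), so a difference was not detectable at this depth.

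The 5p arms, usually the passenger strands, were rare in both libraries. For miR-221-5p there were 10 parental and 6 SDCSC reads, shares of 0.0311% (0.0169 to 0.0572%) and 0.151% (0.0694 to 0.330%), with a ratio of 4.87 (1.45 to 14.8). For miR-222-5p there were 16 parental reads and 1 SDCSC read, shares of 0.0497% and 0.0252%, with a ratio of 0.507. Its interval, from 0.0121 to 3.26, leaves the direction undecided, and the single SDCSC read lies below the 3-read limit.

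**Figure D1:**
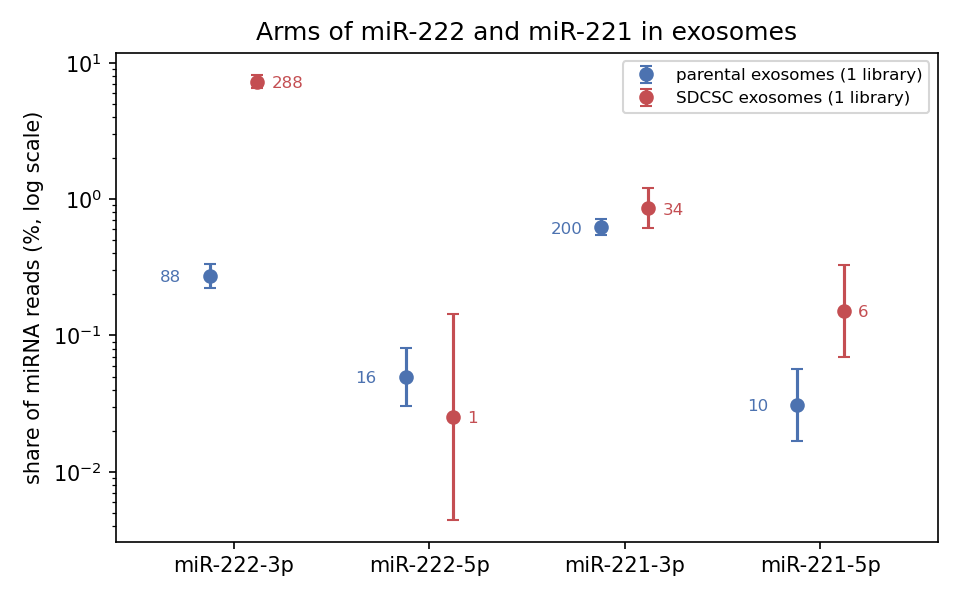
Share of miRNA reads (percent, log scale) of each arm in the parental (blue) and SDCSC (red) library, with 95% Wilson intervals as bars and reads beside the points. The 288 SDCSC reads of miR-222-3p stand far above its 88 parental reads, while the intervals of miR-221-3p and of miR-222-5p overlap between the libraries. Without scaling to the library total, miR-221-3p and miR-221-5p would be lower and not higher in SDCSC exosomes.

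Of the 4 arms, 2 (miR-222-3p and miR-221-5p) were at least 1.5-fold higher in SDCSC exosomes, 1 (miR-222-5p) was at least 1.5-fold lower and miR-221-3p lay between. Among the 116 miRNAs with a read in each library, 44 or 37.9% were higher and 41 or 35.3% were lower by this rule. Without scaling to the library totals the split was 8 higher and 100 lower, since the parental library held 8.11 times the reads, and miR-221-3p and miR-221-5p then changed sign. By a Fisher's exact test (two-sided) on recovered reads, run over the 336 miRNAs with a read in either library with Benjamini-Hochberg adjustment, 16 miRNAs (4.76%) were at least 1.5-fold higher and 31 (9.23%) lower at an adjusted p under 0.05. That test sets one library against the other, not one condition against the other, and no call of a member was read from it. The median log2 ratio of the 116 was 0.06, and 3 of them had a ratio above that of miR-222-3p. With miRNAs of at least 50 reads over both libraries, 68 in all and with a median of -0.81, miR-222-3p stood at place 2 and miR-221-3p at place 12 in the order of ratios. The miRNAs nearest to miR-222-3p in ratio were miR-92b-3p (31 and 125 reads, log2 ratio 5.03) and miR-100-5p (229 and 359 reads, 3.67). They were followed at a distance by miR-21a-5p with 2.26, let-7a-5p with 1.76 and miR-31-5p with 1.68. Around miR-221-3p the order was dense, with let-7e-5p at 0.58, miR-92a-3p at 0.42, miR-148a-3p at 0.41, let-7b-5p at 0.39 and let-7g-5p at 0.38 beside its own 0.46. Likeness here is the difference of log2 ratios over these 2 libraries only.

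**Figure D2:**
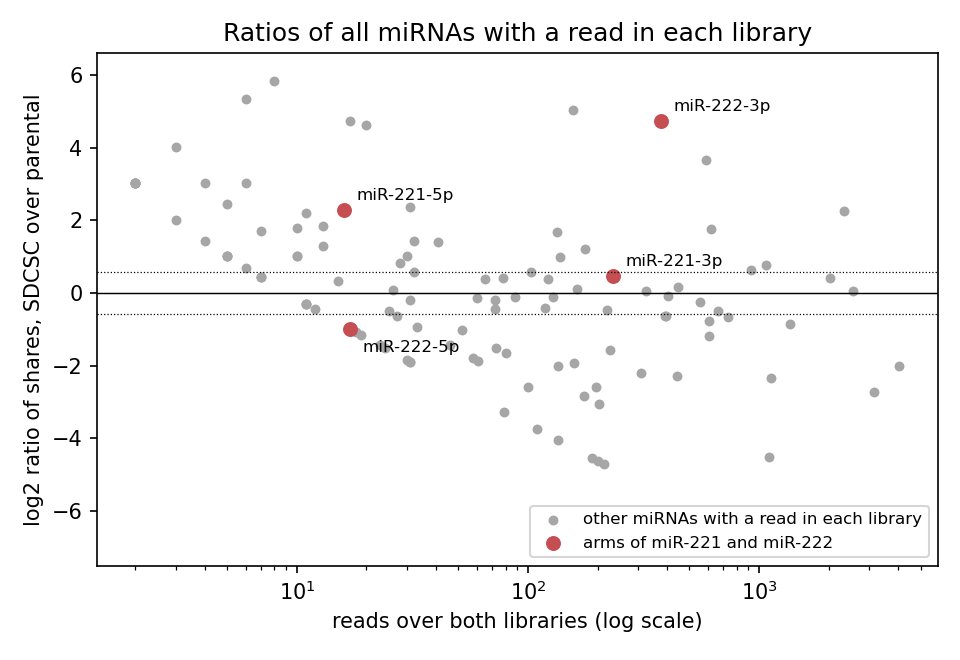
Log2 ratio of shares, SDCSC over parental, against reads over both libraries (log scale) for the 116 miRNAs with a read in each library, the 4 arms in red. Dotted lines mark 1.5-fold in each direction. At the read number of miR-222-3p few miRNAs reach its ratio of 4.73, whereas high ratios at the left edge rest on a handful of reads.

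Because miR-221-3p and miR-222-3p share a seed, their reads were also summed. Both names, whose RefSeq sequences have the seed GCUACAU, had 288 parental reads, 0.895% of the total. They had 322 SDCSC reads, 8.12% (7.31 to 9.01%), a ratio of 9.07 (7.71 to 10.7). The values are counts per name, so the seed of single reads was not seen. Within these reads, miR-222-3p made up 30.6% (25.5 to 36.1%) in parental and 89.4% (85.6 to 92.3%) in SDCSC exosomes. The miRNA with most of these reads thus differed between the libraries. All 4 arms together had 314 parental and 329 SDCSC reads, 0.976% and 8.30% of the totals. The 5p arms summed to 26 and 7 reads, with a ratio of 2.18 (0.801 to 5.17).

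The proportion of the pair was next compared, since it does not depend on the library total. In parental exosomes there were 0.440 reads of miR-222-3p for each read of miR-221-3p (exact interval 0.338 to 0.568). In SDCSC exosomes there were 8.47 (5.92 to 12.5), so the order of the pair was opposite in each library. The proportion changed 19.3-fold (exact interval 12.2 to 30.6), or 4.27 on the log2 scale. For the 5p arms the order was not resolved. The proportion of miR-222-5p to miR-221-5p was 1.60 (0.683 to 3.94) in parental and 0.167 (0.00362 to 1.37) in SDCSC exosomes, and neither interval excludes 1. Reads of different miRNAs are compared here per molecule sequenced. Adapter ligation can favor one sequence over another, but a bias that is constant between the libraries cancels in the change of a proportion.

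To see how far other co-transcribed miRNAs moved apart, the main arms of neighboring hairpins within 10 kb on one strand were compared, where each had at least 50 reads over both libraries. This gave 13 pairs from 9 loci, and pairs of one locus share miRNAs. Only names matched in RefSeq could be paired, 294 of the 336 with a read, so neighboring pairs with an unmatched miRNA are missing. Of the 10 pairs with reads throughout, miR-222-3p and miR-221-3p were the farthest apart, at 4.27 (3.61 to 4.94) on the log2 scale against a median of 1.89 for the other 9. Next came miR-27a-3p and miR-23a-3p at 4.04 (2.28 to 6.43), with an interval that contains the value of miR-222-3p and miR-221-3p, then let-7e-5p and miR-125a-5p at 2.79 (1.42 to 4.26). The other 3 pairs contain miR-24-3p, with 51 parental and 0 SDCSC reads. Of these, miR-27a-3p and miR-24-3p were 2.06 apart when 3 reads were set for the missing value. Their exact interval starts at 1.58 and has no upper limit, so their place relative to miR-222-3p and miR-221-3p is undecided. At the other end, miR-181a-5p and miR-181b-5p differed by 0.31, with an interval that includes 0. In the RefSeq entries used here, miR-221-3p and miR-222-3p each had a single precursor. So did both miRNAs of 5 of the 13 pairs, this one included. The other pairs held a miRNA listed at more than one precursor (miR-24-3p, let-7c-5p, let-7f-5p, miR-30c-5p, miR-181a-5p or miR-181b-5p), whose reads may come from another locus. A precursor missing from these entries was not counted, so the same may hold for further miRNAs, such as let-7a-5p.

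**Figure D3:**
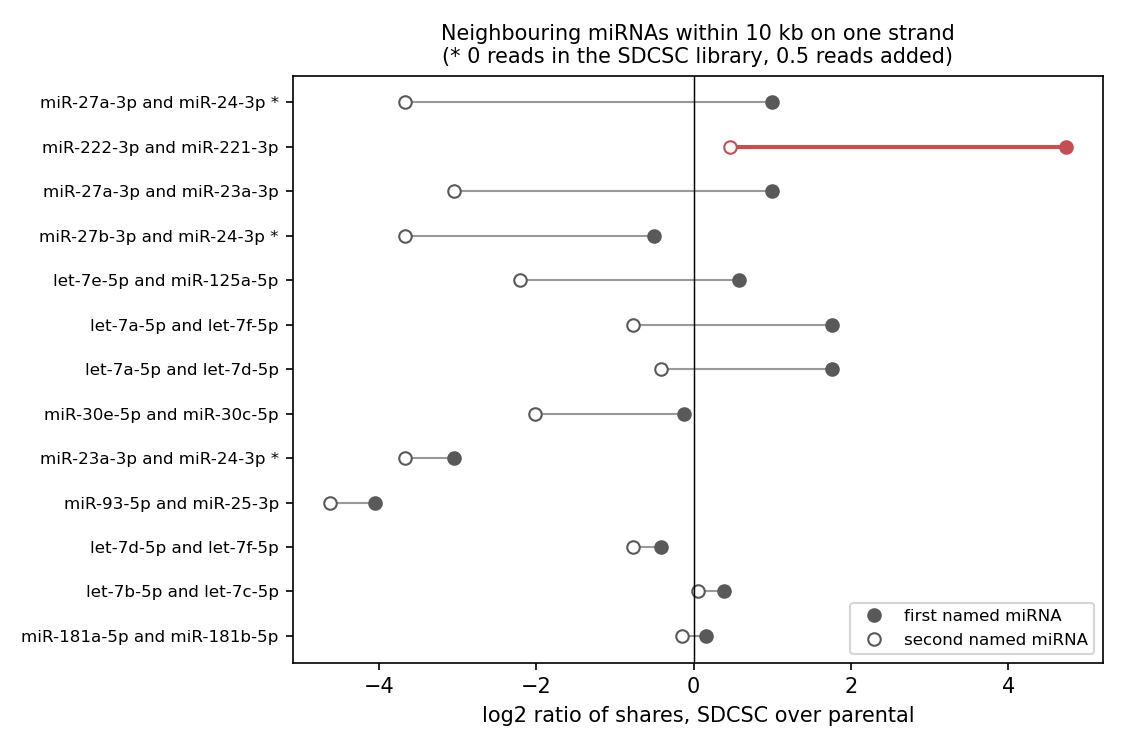
Log2 ratios of shares, SDCSC over parental, for neighboring miRNAs within 10 kb on one strand, joined by a line for each of 13 pairs. Filled points are the first and open points the second miRNA named, and an asterisk marks a pair with 0 SDCSC reads for miR-24-3p, where 0.5 reads were added to both libraries. The red line of miR-222-3p and miR-221-3p runs from 0.46 to 4.73.

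The use of the arms of each precursor was compared last. At the miR-222 hairpin, the 3p arm supplied 88 of 104 reads in parental exosomes, 84.6% (76.5 to 90.3%), and 288 of 289 in SDCSC exosomes, 99.7% (98.1 to 99.9%), and the intervals do not overlap. Its 3p to 5p proportion was 5.50 (3.21 to 10.0) in parental and 288 (51.3 to 11414) in SDCSC exosomes, a 52.4-fold change (7.84 to 2203) whose size is poorly fixed because it rests on 1 read of the 5p arm. At the miR-221 hairpin the values ran the other way, with 200 of 210 reads or 95.2% (91.5 to 97.4%) in parental and 34 of 40 or 85.0% (70.9 to 92.9%) in SDCSC exosomes. These intervals overlap, and the change of the proportion, 0.283 (0.0870 to 1.02), includes 1. Among 26 precursors with at least 10 reads in each library and 50 over both, the 3p share differed by a median of 1.98 percentage points in either direction. The difference was 15.0 points for miR-222, the largest of 5 in favor of the 3p arm, and -10.2 points for miR-221, one of 14 in the other direction. Larger differences than that of miR-222 were found for miR-151 (-59.5 points) and let-7d (-39.3 points), while miR-21a differed by 0.0906 points.

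**Figure D4:**
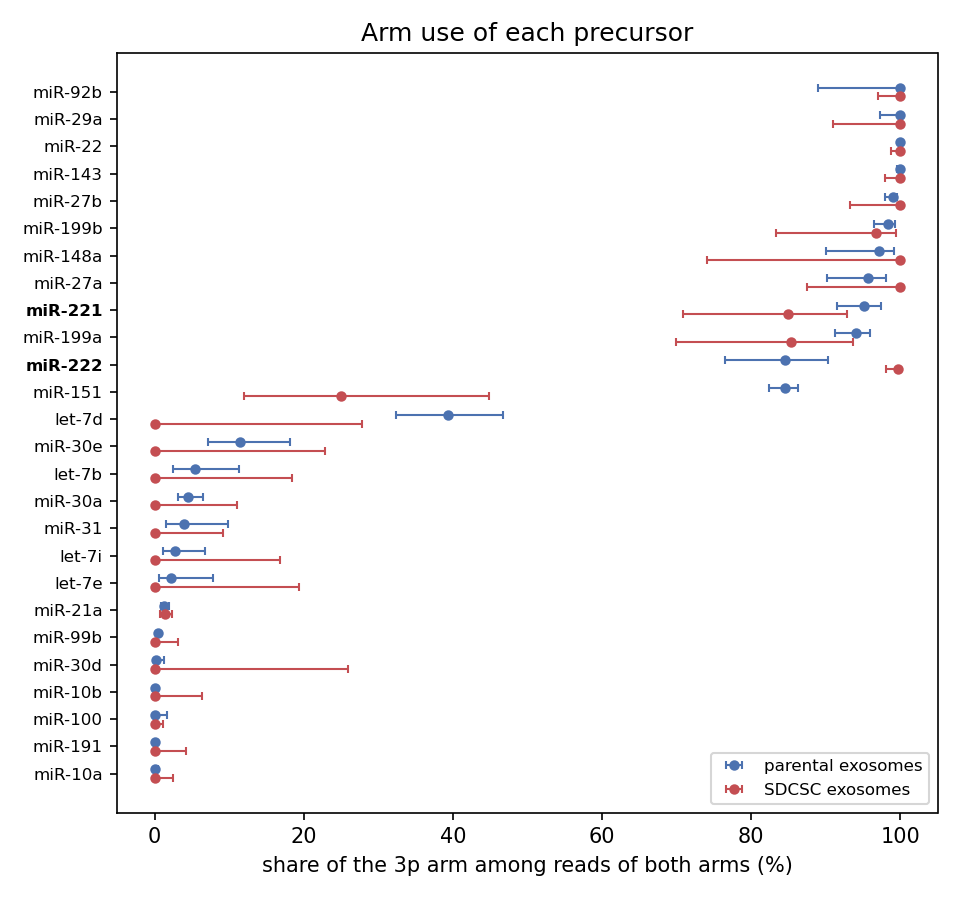
Share of the 3p arm among the reads of both arms (percent) for 26 precursors in parental (blue) and SDCSC (red) exosomes, with 95% Wilson intervals. For miR-222 the share was 84.6% and 99.7%, and for miR-221 it was 95.2% and 85.0%.

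Lists of related miRNAs were set beside the cluster. Of 13 miRNAs regarded as oncogenic in colorectal cancer, 7 had a read in each library, of which 3 were at least 1.5-fold higher and 1 lower in SDCSC exosomes, with a median log2 ratio of 0.44. Over all 116 miRNAs with a read in each library the shares were 37.9% higher and 35.3% lower and the median 0.06, so these few members are not set apart by their count. Those with at least 50 reads were miR-21a-5p (1468 and 865 reads), miR-31-5p (96 and 38) and miR-92a-3p (1743 and 287). Over all 1915 names, 328 had a parental and 124 an SDCSC read, so fewer names were seen in the shallower library throughout. Of 144 other listed miRNAs encoded on chromosome X alone, 24 had a parental and 4 an SDCSC read. The 3 read in each library had a median log2 ratio of -0.30, with 0 at least 1.5-fold higher and 1 lower, too few to be read against the same 37.9% and 35.3%. Their summed share was 0.936% in parental and 0.151% in SDCSC exosomes, against 0.976% and 8.30% for the 4 arms of miR-221 and miR-222. With miRNAs that also have a precursor on another chromosome, 149 listed names, the summed share was 8.13% and 8.43%, most of it from miR-92a-3p (1743 and 287 reads) and let-7f-5p (566 and 41 reads). The member of the narrower list with the most reads, miR-351-5p, had 83 parental and 0 SDCSC reads.

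Markers of cell types were read in the same libraries. Detection again has to be set against all 1915 names, of which 328 had a parental and 124 an SDCSC read. Of 9 epithelial miRNAs, 3 had parental reads and 2 others had SDCSC reads, in sum 55 and 2 reads. Their summed shares were 0.171% (0.131 to 0.223%) and 0.0505% (0.0138 to 0.184%). These intervals overlap, and the 2 SDCSC reads lie below the 3-read limit. The parental reads were 48 of miR-192-5p, 5 of miR-194-5p and 2 of miR-215-5p. The SDCSC reads were 1 each of miR-200b-3p and miR-429-3p, which had 0 parental reads. The epithelial miR-200a-3p, miR-200c-3p, miR-141-3p and miR-375-3p were at 0 in both. The 5 mesenchymal miRNAs took 4.17% and 5.58%, but differed in direction. The log2 ratio was 0.76 for miR-143-3p (888 and 185 reads) and 0.82 for miR-199a-5p (23 and 5 reads). It was -0.63 for miR-199a-3p (365 and 29 reads) and -0.93 for miR-214-3p (31 and 2 reads), and miR-145a-5p had 34 and 0 reads. The 8 blood-associated miRNAs took 6.34% of parental reads and 0.0252% of SDCSC reads. The SDCSC value is 1 read, below the 3-read limit. Reads were 856 and 0 for miR-486a-5p, 853 and 0 for miR-486b-5p, 213 and 1 for miR-142a-5p, and 88 and 0 for miR-451a. Because miR-486a-5p and miR-486b-5p are near-identical and can share reads, the 6.34% may count the same reads under both names. The 2 endothelial arms of miR-126a took 0.451% and 0.0252%, of which miR-126a-5p had 108 and 1 reads. The 4 muscle miRNAs took 0.410% and 0%, with 120 and 0 reads of miR-133a-3p. For 0 SDCSC reads the Wilson interval reaches up to 0.0968%. When the blood and muscle lists were left out of the totals, the log2 ratio was 4.63 for miR-222-3p and 0.36 for miR-221-3p.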

How the data were processed

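Exosomal RNA was size-selected between 18 and 40 nucleotides, and the authors clipped adapters and discarded reads under 18 nucleotides. They deposited RPM values per mature miRNA, which share one total over the 2061 entries of each library. The submitters' processing notes name mm10. For the exosomal RNA content the study's methods describe ncPRO-seq with RepeatMasker and Rfam features and counts divided among shared features. Whether the RPM values were made that way, and the miRBase release, is not given in the sources used here. One parental read was worth 27.31 RPM and one SDCSC read 217.77 RPM. Divided by these steps, 100.0% of nonzero values came out whole within 0.01 reads, and the entries summed to 36615 and 4592 reads. Of 83 names with several entries the highest entry was kept. Each of the 4 arms had 1 entry.

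The members, lists and rules were chosen with earlier results of these data known. The miRNAs named are the members, those sharing a seed, the 5 nearest in ratio to each 3p arm, the most abundant ones, the extreme pairs and precursors, and list members with at least 50 reads. Other miRNAs of the lists were named after their values were seen. Where a library had 0 reads, 0.5 reads were added to both.

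Ratios of shares have exact conditional intervals, proportions exact binomial intervals, their changes exact conditional intervals of the odds ratio, and shares Wilson intervals. A Fisher's exact test over all miRNAs with a read included the members, but no call of theirs is given, as they were chosen on this contrast and 1 library per condition has no replicate check. RefSeq sequences matched 3 of 4 members and 1623 of 1915 names. Precursor pairs used RefSeq hairpins (GRCm38.p6), and arms were paired by name. Functions were tested on simulated data. The alternatives were other scalings, summed entries, added reads, other minimum reads, folds and distances. Software was Python 3.11.15, scipy 1.17.1, pandas 2.3.3, numpy 2.4.6, matplotlib 3.10.9, R 4.3.3 and edgeR 4.0.16, the last for TMM factors only.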

Additional observations from a re-analysis of the deposited data

How the results depend on the processing

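No paired analysis was possible because a single library stands for each group. TMM, the median of ratios, totals without the most abundant miRNA or without the blood and muscle lists, and summed entries shifted all log2 ratios by at most 0.17 and kept every direction and every value of the 4 arms within its interval. Without library scaling, which moves log2 ratios by -3.02, the values were 1.71 for miR-222-3p, -2.56 for miR-221-3p, -0.74 for miR-221-5p and 0.07 for the 4 arms summed. With 5 reads added to every count, miR-222-5p turned to 1.21 and the 3p share of miR-222 in SDCSC exosomes was 98.0%. The change of the miR-222-3p to miR-221-3p proportion stayed between 4.05 and 4.27 on the log2 scale with added reads. Of all miRNAs, 44 were at least 1.5-fold higher and 41 lower. The counts were 12 and 10 with at least 10 reads in each library, 154 and 102 with a read in either, 8 and 100 without library scaling, and 16 higher past the Fisher's exact test. The 154 included miRNAs with 1 or 2 parental reads and 0 SDCSC reads, such as miR-103-2-5p and let-7e-3p. The added 0.5 reads put these at log2 ratios of 1.44 and 0.70, so a call as higher there needs no SDCSC read. Among clustered pairs, with 0.5 reads added for miR-24-3p, miR-222-3p and miR-221-3p were at place 2 of 13, and at place 1 of 9 with at least 100 reads. The cause of these changes was not tested. The depth of the SDCSC library limits the 5p arms, with 6 reads and 1 read.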
